A study of Mus musculus with 12 samples.

Results

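The replication-dependent histone genes encode the histones that package newly copied DNA. They were taken as every gene of the count tables with a mouse symbol H1f1 to H1f5, or H2ac, H2bc, H3c or H4c followed by digits only, which gave 67 of 56941 genes. Of these, 5 encode the linker histone H1, 18 H2A, 19 H2B, 12 H3 and 13 H4. The genes were chosen by name, but the family itself was selected on measured values, the counts of H4c17 and H4c18 in miR-210 KO against WT, which were known at that point. The values of those 2 genes between genotypes are therefore given as a description, without a test, and both are left out of the counts of genes between genotypes.

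RNA was sequenced from macrophages grown from bone marrow monocytes of C57BL/6J mice, WT or with miR-210, a hypoxia-induced microRNA, deleted (miR-210 KO). The mice came from crosses of heterozygous animals, and the deletion was first made by crossing floxed miR-210 mice with a Gata-1 Cre line. All cells were cultured for 7 days in medium with 30% L929-conditioned medium as a source of M-CSF. M2 cells then received 20 ng/mL IL-4 for 72 hours, and M0 cells were kept the same way without it. With 3 stranded paired-end libraries each, made after removal of ribosomal RNA, there were 4 groups: WT M0, KO M0 (for miR-210 KO), WT M2 and KO M2. Nothing says that the 3 came from separate animals, so p-values measure the spread between these libraries, which may be technical. The batch named in the labels changes with the group, and the effects of batch and group cannot be told apart. The age and sex of the mice are not given in the sources used here.

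Most mRNAs end in a poly(A) tail, whereas mRNAs of this family end just after a short stem-loop that is bound by the stem-loop binding protein (Slbp). They are made in S phase, together with DNA replication, and are degraded when it ends. Libraries made by removal of ribosomal RNA keep such transcripts, while selection for poly(A) loses most of them. H2A, H2B, H3 and H4 form the nucleosome core, and H1 binds the DNA between nucleosomes. The genes lie in clusters. Copies of H2A, H2B, H3 or H4 encode the same or similar proteins, while the H1 genes encode distinct subtypes.

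The libraries held 7930525 to 10167695 counts, and the family took 0.201% to 0.337% of them. The count of Mir210, the deleted gene, was 1, 3 and 5 in the WT M0 libraries and 1, 2 and 1 in those of WT M2. All 6 libraries of the miR-210 KO had 0, which matches the label, though the WT counts are too low for a firm check. All 7 macrophage markers were present in each library, with Lyz2 at 32748 to 53643 counts and Cd68 at 8819 to 12358. Mertk, at 598 to 2105 counts, and Fcgr1, at 318 to 5138, reached the lowest counts. With IL-4, 3 of the 7 had a log2 fold change above 0 and 4 below in each genotype. The lowest was -2.97 in WT and -2.59 in miR-210 KO. Retnla and Chil3, markers of the M2 state, had means of 430 and 1736 CPM in WT M2. In WT M0 their means were 0 and 0.127. CPM are counts scaled to the library total and by TMM factors. The 5 T and NK cell markers, the 3 mast cell markers, the 5 fibroblast markers and the 5 erythroid markers each summed to at most 1.22, 0.210, 2.29 and 4.84 CPM in a library. B cell markers summed to 5.93 to 10.2 CPM, with Ms4a1 at 0 counts in every library. The 3 megakaryocyte markers summed to 345 to 514 CPM, nearly all from Pf4, while Gp1bb was at 0 throughout. The 10 neutrophil and granulocyte precursor markers summed to 2.94 to 6.10 CPM in WT M2 and to 1.12 to 3.17 CPM in the other groups. S100a8, with 5 to 33 counts in a library, was the only one of them that passed the filter on low counts. The others had at most 8 counts in a library and did not move together. From WT M0 to WT M2, mean S100a9 went from 0.442 to 0.280 CPM and mean Ngp from 0.153 to 0.245 CPM, and both were at 0 in the miR-210 KO groups. S100a8 rose in WT M2 against WT M0 by 2.04 on the log2 scale (adjusted p = 0.00023, edgeR). Its log2 fold change was -0.19 with IL-4 in miR-210 KO (adjusted p = 0.71), 1.03 in KO M0 against WT M0 (adjusted p = 0.41) and -1.17 in KO M2 against WT M2 (adjusted p = 0.060), and its interaction of genotype and state was -2.22 (adjusted p = 0.12). These signs are those of most histone genes in the same comparisons, apart from that in miR-210 KO, and its part in their differences was not tested.

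The family was first checked by sequence, in the GRCm39 genome that the count tables also use. A stem-loop of 16 bases was searched on the coding strand in the 150 bases after the stop codon. It had to read GG, 3 bases of any kind, TTTT, 1 base, A, 3 bases and CC, with the 6 bases at each end paired around a loop of 4. It was present in 60 of the 67 genes (89.6%) and in 65 of the 21260 protein-coding genes searched (0.306%), these 60 included. The genes searched leave out 1 chromosome, named below. It was found 22 to 59 bases after the stop codon. The most common form, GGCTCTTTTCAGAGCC, was shared by 39 genes of the H1, H2A, H2B and H3 classes. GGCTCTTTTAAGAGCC was shared by 8 genes of H2A, H2B and H3, and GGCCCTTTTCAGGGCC by 8 genes, all of them H4. These stem-loops are shown because they mark the mRNAs of the family, with the stem-loop in capitals and flanking bases in lower case.
H1f5, chr13:21964002-21964027, minus strand: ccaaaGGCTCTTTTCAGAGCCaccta
H3c6, chr13:23746072-23746097, minus strand: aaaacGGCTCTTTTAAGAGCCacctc
H4c17, chr13:21996294-21996319, plus strand: ctaaaGGCCCTTTTCAGGGCCatcca
H4c18, chr13:22015963-22015988, minus strand: ctaaaGGCCCTTTTCAGGGCCatcca
H4c9, chr13:22225131-22225156, minus strand: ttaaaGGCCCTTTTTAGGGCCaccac
H4c17 and H4c18 had the same 26 bases here, and H4c9 differed from them in the loop and the flanks. The 7 genes without the pattern in this window were H2ac22, H2bc21, H2bc22, H2bc23, H2bc24, H3c8 and H4c1. Of 11 replication-independent histone genes, such as H3f3a and Macroh2a1, 1 had it.

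In the 250 bases before the transcript start, CCAAT, a motif bound by the factor NF-Y, was found on either strand in 53 of the 67 genes (79.1%), against 36.5% of the 21260 protein-coding genes. All 18 H2A genes and 18 of the 19 H2B genes had it, while 4 of the 13 H4 genes did. TATAAA, the core of the TATA box, was found on either strand in 33 of 67 (49.3%), against 11.9%. The 21260 genes, here and in the search for the stem-loop, leave out those of chromosome 18. A match of letters is a description of the window and not a site of binding.

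The family lies on 4 chromosomes. The 53 genes on chromosome 13 fall into a first cluster of 23 at chr13:21899933-22227846 and a second of 30 at chr13:23715220-24118834. A further 10 lie at chr3:96127181-96177448, 3 at chr11:58838848-58847656 and 1, H4c16, at chr6:136778551-136781413. Near-identical copies limit what a read can be assigned to. Of the 67 genes, 33 shared at least 50% of the 50-base stretches of their transcript with another gene, including genes annotated over the same bases, and a count of these genes is uncertain to that extent. H1f1, H1f5 and H2bc21 shared none.

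Of the family, 58 genes passed the filter on low counts in at least 1 comparison. The 9 that never did were H2ac1, H2ac18, H2ac23, H2ac24, H2bc1, H2bc23, H2bc24, H2bc27 and H3c14, which had 0 to 26 counts over the 12 libraries together. Of these 9, H2bc23, H2bc24 and H3c14 shared 100% of their stretches, and H2ac18, H2ac23 and H2ac24 shared 89.4% to 93.5%. A low count of such a gene does not separate a silent gene from one whose reads match a copy. H2bc1 and H2ac1, which had 0 counts and 1 count, shared 38.2% and 2.35%.

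Levels of different genes were compared as CPM (scaled by TMM) per kb of the annotated transcript, averaged over the 12 libraries. The H4 gene H4c8 had the highest level, at 235 CPM per kb, followed by the H1 gene H1f2 at 223. H4c12 and H4c2 followed, both at 186 CPM per kb. The highest H2A genes were H2ac20 and H2ac15 at 132 and 122, the highest H3 genes H3c6 and H3c10 at 117 and 100.1, and the highest H2B genes H2bc15 and H2bc8 at 101 and 81.9. H1f4, the second H1 gene, was at 85.6 CPM per kb. Gene models of very different length affect this order: H1f3, with a transcript of 7425 bases, ranked at 15.5 CPM per kb although its mean level was 115 CPM. Among genes that were tested, H2bc22 was lowest at 1.80 CPM per kb, and H3c15 and H2ac19 followed at 2.22 and 3.89.

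Summed over the family, the level was 2221, 2133 and 1990 CPM in the WT M0 libraries and 2765, 2204 and 3077 CPM in KO M0. It was 3247, 3398 and 3001 CPM in WT M2 and 3009, 2934 and 2755 CPM in KO M2. The WT M0 libraries were thus lowest, except that 1 KO M0 library lay among them, and the other groups overlapped in part. The means were 2115 ± 117, 2682 ± 442, 3215 ± 200 and 2899 ± 131 CPM (SD, n = 3) in that order of groups. In these bulk samples, more cells in S phase and more histone RNA per cell cannot be told apart.

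**Figure D1:**
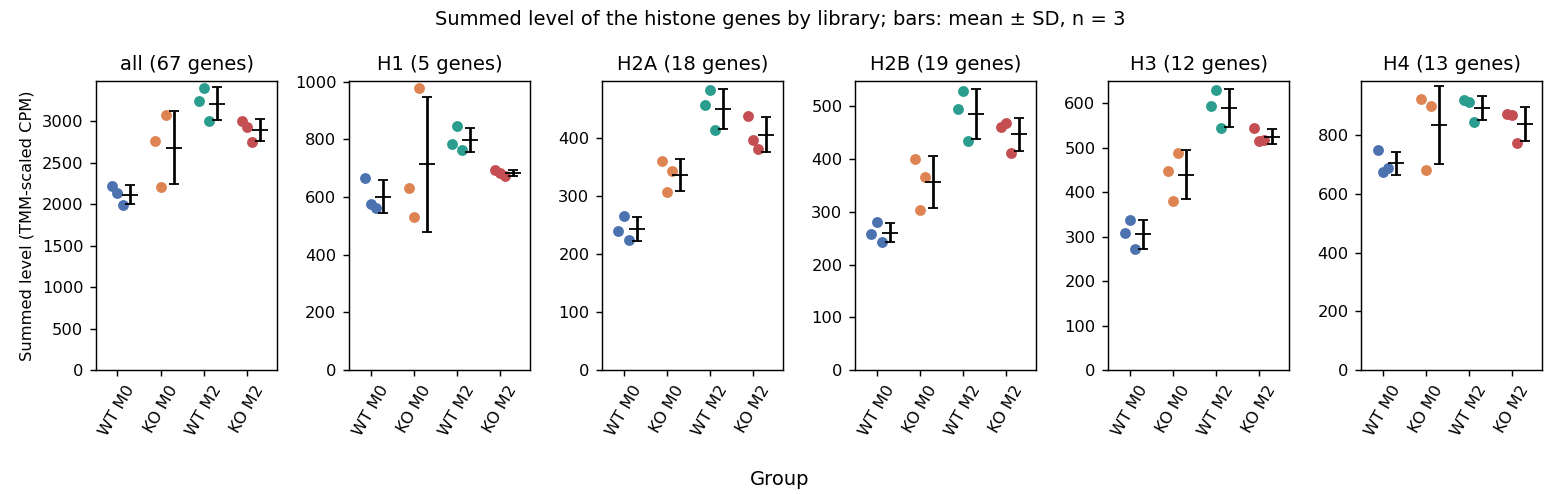
Summed level in TMM-scaled CPM (linear axes from 0) of the family and of each histone class; points are the 3 libraries of a group, bars the mean ± SD. All 5 classes are lowest in WT M0 and highest in WT M2 by mean, and 1 KO M0 library stands apart in H1.

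Of the classes, H3 had 305 ± 33.1 CPM in WT M0, 439 ± 54.8 in KO M0, 590 ± 42.5 in WT M2 and 525 ± 16.1 in KO M2 (SD, n = 3). H2A and H2B followed the same order of groups, from 243 ± 20.7 and 260 ± 18.5 CPM in WT M0 to 450 ± 34.5 and 485 ± 47.8 CPM in WT M2. H4, from 704 ± 39.9 to 892 ± 41.6 CPM in the same groups, spanned less. For H1 the KO M0 libraries lay far apart, at 633, 531 and 978 CPM, and the group mean is set by library 3. In that library H1f2 had 4729 counts and H1f4 2753, against 2640 and 2589, and 1500 and 1484, in the other two. Among the 58 tested genes, library 2 of KO M0 was the lowest of its group for 45. Library 2 of WT M0 was the highest of its group for 31, and H2ac10 for example had 247 counts there and 90 and 100 in the other two.

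**Figure D2:**
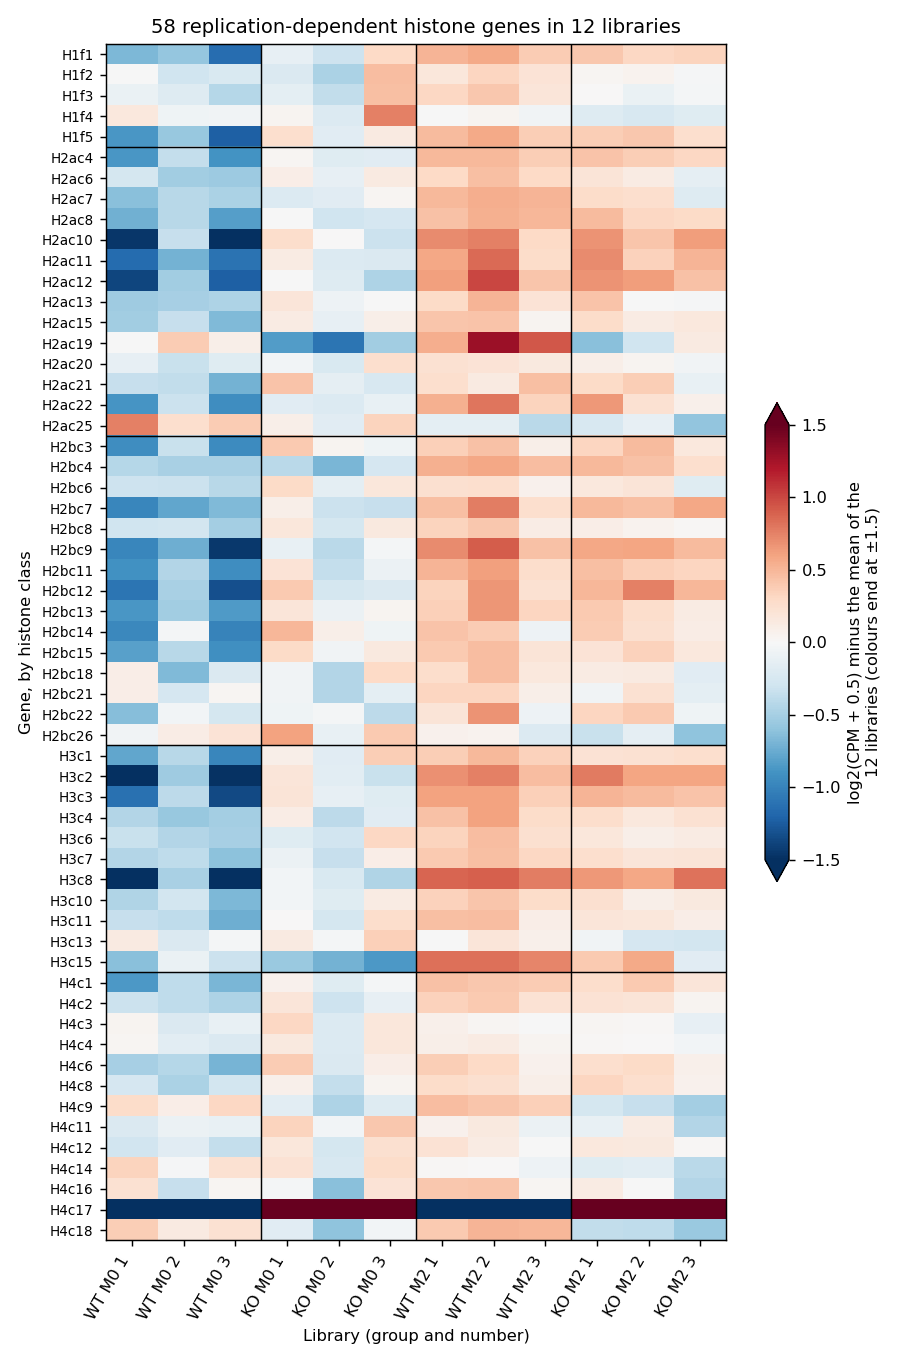
Level of the 58 genes that passed the filter in at least 1 comparison (rows, by class) in the 12 libraries (columns), as log2(CPM + 0.5) minus the mean of the 12 libraries; colours end at ±1.5. Most genes are below their mean in WT M0 and above it in WT M2, and H4c17 is high in the miR-210 KO libraries and low in the WT libraries.

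The comparison of miR-210 KO with WT in M0 asked what the deletion changes in resting cells. H1f5, an H1 gene, and H2bc15, an H2B gene, were called higher in KO M0, which made 2 of 55 tested genes with H4c17 and H4c18 left out. Over all 14089 genes tested, 0.461% were called (edgeR, with an adjusted p below 0.05 and a change of over 1.2-fold), 0.220% higher and 0.241% lower. At an unadjusted p under 0.05 there were 40 of these 55 genes, against 10.0% of all genes tested. Of these 38 were higher and 2 lower, against 5.04% and 4.97%. The genotypes did not overlap for 35 higher and 2 lower genes, against 7.13% and 7.30%. The log2 fold changes had a median of 0.47, with 48 above 0 and 7 below. Over all genes the median was 0.00, and 50.1% were above 0.

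H1f5 had 140, 215 and 137 counts in WT M0 and 354, 310 and 365 counts in KO M0. The groups did not overlap, and its level was 1.95-fold higher in KO M0 (log2 fold change 0.96 ± 0.16 SE, adjusted p = 0.031). H2bc15 had 163, 267 and 190 counts in WT M0 and 404, 373 and 412 counts in KO M0. It was 1.79-fold higher (log2 fold change 0.84 ± 0.14 SE, adjusted p = 0.028), again without overlap, and it shares 86.4% of its 50-base stretches, most with H2bc12. With 1 library left out in turn, each of H1f5 and H2bc15 was called in 2 of 6 fits, and both were called in 7 of 8 other settings, among them the DESeq2 Wald test. Neither was called in the eighth, which required a log2 fold change past 1.

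How many of the family were called in M0 depended on the test and on single libraries. With H4c17 and H4c18 left out, the DESeq2 Wald test called 16 of 62 genes with a count, all of them higher. Over all 26255 genes with a count in these libraries it called 0.800%. A gene without an adjusted p could not be called, and 54 of the 62 had one. The edgeR test called 22 in a fit of all 12 libraries and 32 with no filter on low counts, against 1.67% and 2.03% of all genes. With library 2 of WT M0 left out it called 24 (2.10% of all genes), with library 2 of KO M0 left out 10 (0.733%), and with any of the other 4 left out none. By class, the median log2 fold change was 0.26 in H1, 0.55 in H2A, 0.67 in H2B, 0.44 in H3 and 0.26 in H4. The H2A, H2B and H3 genes thus had larger median changes than H1 and H4 genes, a difference that was not tested. In H2A, none of 14 tested genes was called by edgeR, with 12 at an unadjusted p under 0.05 and 4 called by DESeq2. In H3 none of 11 was called by edgeR, with 9 at an unadjusted p under 0.05 and 3 called by DESeq2.

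In M2 most of the family lay below 0. Of 56 tested genes, with H4c17 and H4c18 left out, 52 had a log2 fold change below 0 in miR-210 KO against WT, with a median of -0.16, against 0.00 for all genes, of which 50.6% were above 0. The H4 gene H4c9, the H2A gene H2ac19 and the H1 gene H1f3 were called lower, and none was called higher. These 3 of 56 compare with 0.980% of 13980 genes tested, 0.408% higher and 0.572% lower. At an unadjusted p under 0.05 there were 19 (10.7% of all genes), 19 of them lower and 0 higher, against 5.85% and 4.86%. The genotypes did not overlap for the same numbers of genes, 19 lower and 0 higher, against 8.52% and 7.52%.

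H4c9 had 271, 294 and 239 counts in WT M2 and 156, 173 and 128 counts in KO M2. It fell by 0.79 ± 0.10 on the log2 scale (SE, adjusted p = 0.00025), and was called in each of 6 fits with a library left out. In M0 its counts were 221, 240 and 284 in WT and 185, 175 and 202 in miR-210 KO, a log2 fold change of -0.51 ± 0.12 that was not called (adjusted p = 0.10), though here too the levels did not overlap. The interaction of genotype and state was -0.28 ± 0.15 for H4c9 (adjusted p = 0.60), so the M0 and M2 differences were not shown to differ. H4c9 shares 28.9% of its stretches with other genes, most with H4c18 (19.2%), so its count is uncertain to that extent. Whether the assignment of shared reads had a part in the differences of H4c9 was not tested.

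H2ac19 had 24, 48 and 31 counts in WT M2 and 8, 13 and 16 counts in KO M2, and fell 2.71-fold (SE 0.30 on the log2 scale, adjusted p = 0.031). In M0 it had 14, 24 and 19 counts in WT and 7, 6 and 11 counts in miR-210 KO (log2 fold change -1.34 ± 0.35, adjusted p = 0.15). In each state the scaled miR-210 KO levels of H2ac19 lay below those of WT, without overlap. All of its 50-base stretches occur in another gene, most in Gm20634, a noncoding gene annotated over the nearby H2ac18, and its M2 call held in 2 of 6 fits with a library left out. H1f3 had 1191, 1422 and 1034 counts in WT M2 and 929, 1010 and 884 in KO M2. Its level fell by 0.34 ± 0.07 on the log2 scale (SE, adjusted p = 0.023), with no overlap after scaling, and was called in 2 of 6 such fits.

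H4c17 and H4c18 differed between genotypes in opposite directions. H4c17 (chr13:21995916-21996317, plus strand) had 9, 4 and 7 counts in WT M0 and 401, 373 and 510 counts in KO M0. In M2 it had 9, 10 and 6 counts in WT and 334, 392 and 299 counts in miR-210 KO. H4c17 was thus near 0 in all 6 WT libraries and well above it in all 6 miR-210 KO libraries. On the log2 scale the M0 difference was 5.87 ± 0.25 and the M2 difference 5.36 ± 0.16 (SE), or 58.6-fold and 41.0-fold. It passed the filter on low counts only through the miR-210 KO libraries, and in WT alone it was too low to be tested.

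H4c18 (chr13:22015937-22016366, minus strand) had 479, 502 and 546 counts in WT M0 and 375, 326 and 459 counts in KO M0. In M2 it had 527, 640 and 542 counts in WT and 297, 345 and 256 counts in miR-210 KO. The log2 fold changes were -0.51 ± 0.13 in M0 and -0.91 ± 0.08 in M2 (SE). In neither state did WT and miR-210 KO levels overlap.

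The 2 genes are inverted copies about 20 kb apart. Over the 402 bases of the H4c17 transcript, H4c18 differed at 1 base, G36A, counted from 1 at the 5′ end of the H4c17 transcript, whose coding sequence starts at base 39. The coding sequences were identical, and each encodes the same protein of 103 residues, as do all 13 H4 genes of the family. The 10488 bases before the 2 transcript starts were identical as well. The 30 bases around the difference are shown because they hold the only base that differs over these 402, with the differing base in capitals.
H4c17, chr13:21995937-21995966, plus strand: acagttttgtcttcGtcatgtctggtcgtg
H4c18, chr13:22016316-22016345, minus strand: acagttttgtcttcAtcatgtctggtcgtg
Of the 50-base stretches of H4c17, 317 of 353 (89.8%) occur in H4c18, and 317 of the 381 of H4c18 (83.2%) occur in H4c17. How reads common to both were counted is not given in the sources used here, so the 2 counts are uncertain. Whether the WT and miR-210 KO mice differ in the sequence of these copies was not tested, and a difference in expression and one in the assignment of reads cannot be told apart from these counts.

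**Figure D3:**
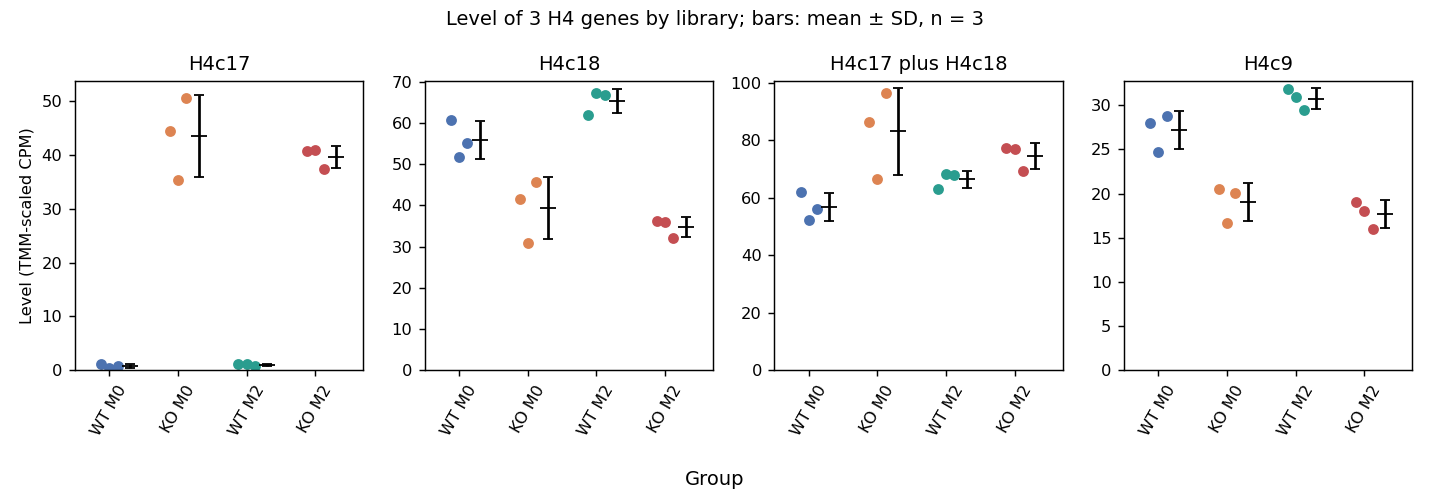
Level in TMM-scaled CPM (linear axes from 0) of H4c17, H4c18, their sum and H4c9; points are the 3 libraries of a group, bars the mean ± SD. H4c17 is near 0 in the WT groups, H4c18 and H4c9 are lower in the miR-210 KO groups, and the sum differs far less between genotypes than H4c17 alone.

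Of the counts of the pair, H4c17 took 0.791% to 1.84% in the 6 WT libraries and 51.7% to 53.9% in the 6 miR-210 KO libraries. The sum of both was 56.7 ± 4.93 CPM in WT M0 and 83.0 ± 15.2 in KO M0 (SD, n = 3), a ratio of 1.46. In M2 it was 66.4 ± 2.89 and 74.5 ± 4.44 CPM, a ratio of 1.12. The remaining 11 H4 genes summed to 647 ± 35.1 and 752 ± 120 CPM in M0, a ratio of 1.16, and to 826 ± 43.0 and 764 ± 52.8 CPM in M2, a ratio of 0.924. The whole H4 class therefore had a log2 ratio of 0.24 in M0 and -0.09 in M2, far from the change of H4c17.

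**Figure D4:**
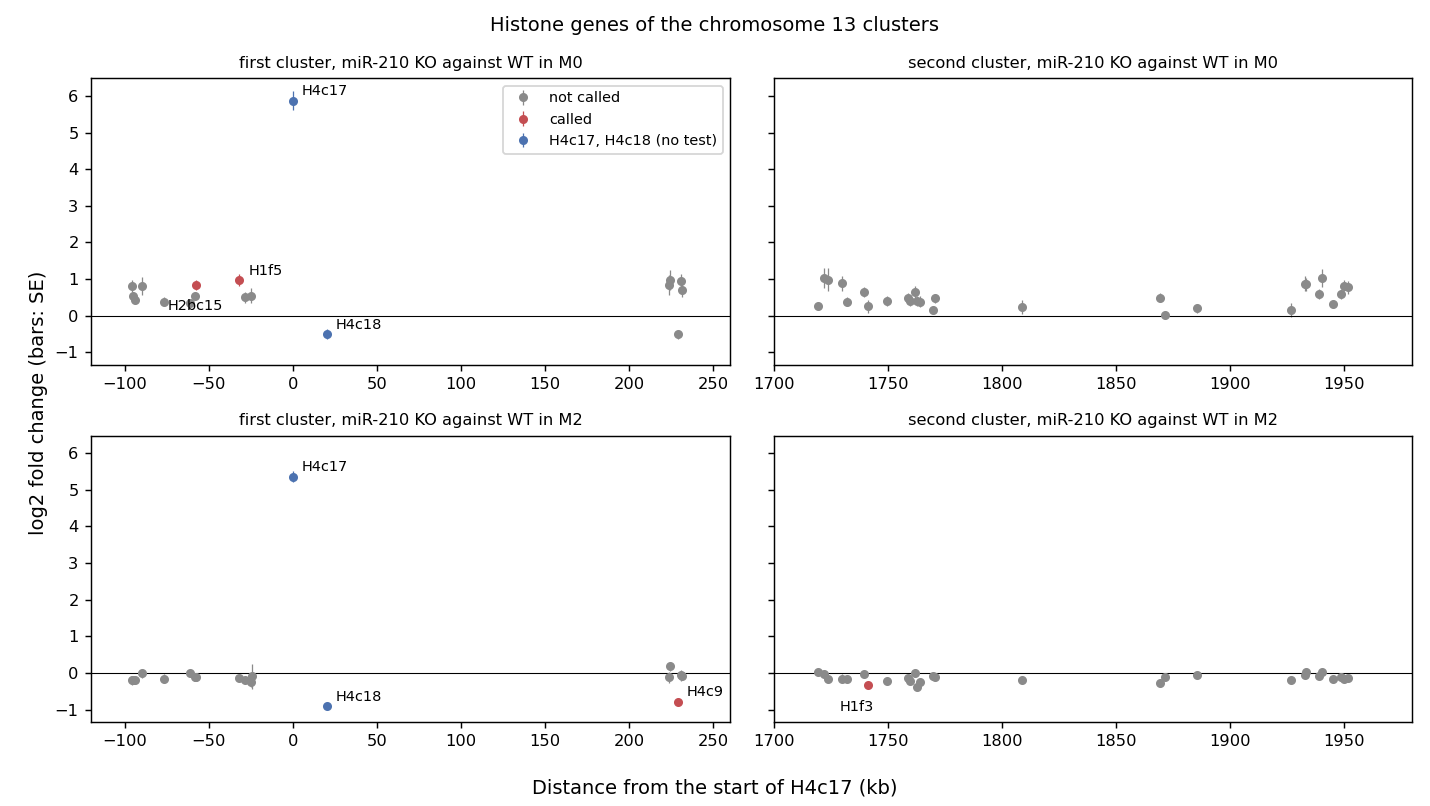
Log2 fold change of miR-210 KO against WT (bars: SE) of the tested histone genes in the chromosome 13 clusters, by distance in kb from the start of H4c17, in M0 (top) and M2 (bottom). Called genes are red. H4c17 and H4c18, on whose values the family was selected, are blue, and no test between genotypes is given for them. H4c17 stands at 5.87 and 5.36, most other genes are above 0 in M0 and below 0 in M2, and H4c18 and H4c9 are below 0 in both states.

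Without H4c17 and H4c18, H4c9 was below 0 in M0 in the first cluster of chromosome 13. Every other tested gene there was above 0, and most were below 0 in M2. Over all genes tested, 50.1% were above 0 in M0 and 50.6% in M2. In the second cluster, which holds neither H4c17 nor H4c18, all 28 tested genes were above 0 in M0, with a median log2 fold change of 0.47, and 25 of 28 were below 0 in M2. On chromosome 3 the median was 0.06 in M0, with 4 of 8 above 0, and -0.24 in M2. The 30 other genes tested within 2 Mb of H4c17 ranged in log2 fold change from -0.34 to 1.50 in M0 and from -0.56 to 0.60 in M2. Of these 30, none was called by edgeR in either state, with 4 and 5 at an unadjusted p under 0.05, and none by DESeq2.

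The comparison of M2 with M0 asked what IL-4 changes in each genotype. In WT, 45 of 56 tested genes of the family were called higher in M2 and 1, H2ac25, lower. Among the 11135 genes that could be called, as protein-coding genes averaging above 10 normalized counts, 45.4% were called, 23.6% higher and 21.8% lower. At an unadjusted p under 0.05 there were 50, 48 of them higher and 2 lower, against 57.5%, 29.5% and 28.0%. The states did not overlap for 46 higher and 1 lower, against 30.7% and 30.1%. The median log2 fold change was 0.85 and 52 were above 0, against 0.00 and 50.7% for all genes. The number called lay between 43 and 49 with 1 library left out in turn.

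All 14 tested H2A genes, 13 of 14 H2B genes and 10 of 11 H3 genes were called in WT, with median log2 fold changes of 0.99, 1.02 and 0.99. In H1 it was 4 of 5 genes with a median of 0.54, and in H4 5 of 12 with a median of 0.28. H4 thus had the smallest median and the smallest share called of the 5 classes.

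The 5 largest increases in WT were those of H3c8, H2ac12, H2bc9, H3c2 and H2ac11. H3c8, an H3 gene, had 19, 67 and 30 counts in WT M0 and 157, 179 and 138 counts in WT M2. It rose by 2.11 ± 0.25 on the log2 scale (SE, adjusted p = 1.1e-05), or 4.32-fold. H2ac12 went from 19, 46 and 27 to 94, 139 and 77 counts (log2 fold change 1.82 ± 0.24, adjusted p = 3.3e-05). H2bc9 went from 69, 102 and 61 to 250, 321 and 196 counts (1.79 ± 0.17, adjusted p = 1.5e-06). In each of these genes the lowest M2 library was above the highest M0 library.
H3c2 had 77, 195 and 101 counts in WT M0 and 405, 475 and 329 counts in WT M2 (log2 fold change 1.78 ± 0.20, adjusted p = 6.4e-06). H2ac11 had 30, 52 and 39 counts and then 117, 159 and 90 counts (1.67 ± 0.19, adjusted p = 9.3e-06). H2ac25, an H2A gene of the chromosome 11 locus, had 128, 110 and 123 counts in WT M0 and 72, 81 and 57 counts in WT M2, and fell by 0.71 ± 0.16 on the log2 scale (SE, adjusted p = 0.0025). It lies outside the large clusters and shares 70.7% of its stretches, most with Trim17, which is annotated over the same bases.

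The most abundant genes had smaller fold changes than these 5. H1f2, the most abundant H1 gene, had 2680, 2703 and 2888 counts in WT M0 and 3278, 4066 and 3181 counts in WT M2, an increase of 0.41 ± 0.08 (SE, adjusted p = 0.00074). H4c8 and H4c12 rose by 0.55 ± 0.08 and 0.39 ± 0.08, H2ac20 and H2ac15 by 0.41 ± 0.07 and 0.82 ± 0.11, and H3c6 and H3c10 by 0.78 ± 0.08 and 0.83 ± 0.10. H2bc15 and H2bc8 rose by 1.07 ± 0.13 and 0.66 ± 0.10. All 8 of these were called, at adjusted p between 1.6e-06 and 0.0017. The counts of H1f4 were 1428, 1502 and 1547 in WT M0 against 1379, 1590 and 1262 in WT M2, and it was not called (-0.01 ± 0.07, adjusted p = 0.89).

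The most abundant genes of the core classes are shown by library. H4c8 had 720, 756 and 882 counts in WT M0, 1028, 891 and 1123 in KO M0, 1121, 1221 and 937 in WT M2 and 1113, 1245 and 907 in KO M2. H4c12 had 372, 497 and 443 counts in WT M0, 582, 506 and 687 in KO M0, 570, 596 and 465 in WT M2 and 526, 610 and 465 in KO M2. In scaled level, both H4 genes overlapped between WT M0 and KO M0, and not between WT M0 and WT M2. The H2A gene H2ac20 had 494, 525 and 596 counts in WT M0, 599, 614 and 819 in KO M0, 680, 751 and 611 in WT M2 and 592, 672 and 526 in KO M2. H2ac15 had 255, 357 and 291 counts in WT M0, 460, 454 and 502 in KO M0, 531, 600 and 390 in WT M2 and 464, 487 and 419 in KO M2. H2ac15 did not overlap between WT M0 and either KO M0 or WT M2 in its scaled level. The H2B gene H2bc8 had 319, 397 and 344 counts in WT M0, 506, 437 and 556 in KO M0, 536, 626 and 434 in WT M2 and 437, 495 and 404 in KO M2. The H3 gene H3c6 had 593, 678 and 666 counts in WT M0, 753, 820 and 1187 in KO M0, 1019, 1251 and 913 in WT M2 and 876, 971 and 832 in KO M2. H3c10 had 231, 320 and 246 counts in WT M0, 350, 373 and 440 in KO M0, 434, 513 and 395 in WT M2 and 390, 408 and 356 in KO M2. All 3 of these genes were lower in WT M0 than in KO M0 and WT M2 in their scaled level, with no overlap.

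In miR-210 KO, 18 of 58 tested genes were called higher in M2 and 1, H3c13, lower. Of 11116 genes that could be called, 36.6% were called, 18.5% higher and 18.1% lower. At an unadjusted p under 0.05 there were 27, 21 of them higher and 6 lower, against 46.6%, 23.1% and 23.5%. The states did not overlap for 20 higher and 2 lower, against 25.0% and 25.3%. The median log2 fold change was 0.18 and 45 were above 0, against -0.01 and 48.5% for all genes. The 18 genes were also called in WT, so that they made up 100% of the KO calls and 40.0% of the WT calls. By class, 6 of 14 H2A, 5 of 15 H2B, 5 of 11 H3, 1 of 5 H1 and 1 of 13 H4 genes were called higher. The split depended on scaling and on 1 library, with 17 higher and 4 lower without TMM scaling and 13 higher and 9 lower with library 2 of KO M0 left out.

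The 5 largest increases in miR-210 KO were those of H3c15, H3c8, H2ac12, H2bc4 and H3c2. H3c15 had 11, 11 and 9 counts in KO M0 and 23, 31 and 14 counts in KO M2, a low-count gene that rose by 1.31 ± 0.33 (SE, adjusted p = 0.0072). Its counts in WT were 9, 18 and 15 in M0 and 34, 38 and 30 in M2, with a like increase of 1.35 ± 0.24. H3c8 had 86, 88 and 71 counts in KO M0 and 129, 143 and 141 in KO M2, an increase of 0.95 ± 0.15 (adjusted p = 0.00029). The M2 counts of H3c8 were close to those of WT M2, and its M0 counts were above those of WT M0.
H2ac12 had 63, 64 and 50 and then 94, 107 and 78 counts (0.85 ± 0.17, adjusted p = 0.0020). H2bc4, an H2B gene, had 528, 505 and 654 and then 891, 1011 and 741 counts (0.84 ± 0.11, adjusted p = 6.1e-05). In WT, H2bc4 had 452, 536 and 547 and then 953, 1103 and 867 counts, an increase of 1.00 ± 0.07, and between genotypes in M0 its log2 fold change was 0.03 ± 0.11. H3c2 had 301, 276 and 234 counts in KO M0 and 414, 427 and 355 in KO M2 (0.75 ± 0.13, adjusted p = 0.00043). H3c13 had 398, 414 and 517 and then 316, 321 and 265 counts, a fall by 0.36 ± 0.11 on the log2 scale (SE, adjusted p = 0.026), which was called in 3 of 6 fits with a library left out.

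**Figure D5:**
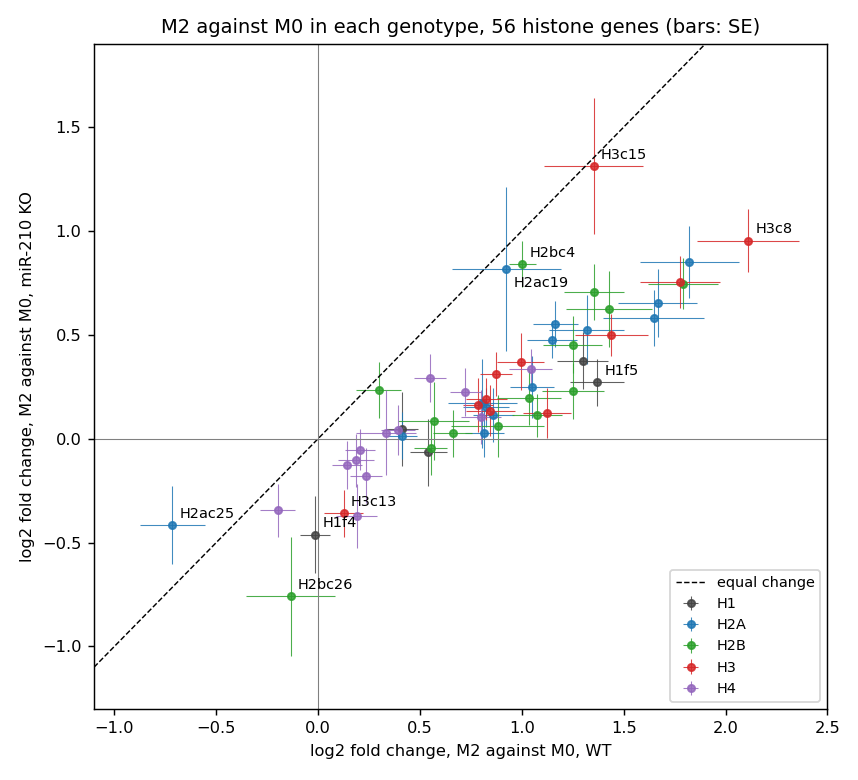
Log2 fold change of M2 against M0 in WT (horizontal axis) and in miR-210 KO (vertical axis) for the 56 histone genes tested in both, by class; bars are SE and the dashed line marks equal change. Of the 56 genes, 55 lie below the line, H2ac25 being the exception.

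Of 56 genes tested in both genotypes, H4c18 included, 55 had the larger log2 fold change in WT. Whether the change differed between genotypes was tested as the interaction of genotype and state over all 12 libraries. With H4c17 and H4c18 left out, none of 56 genes was called by edgeR, with adjusted p from 0.095, and 0 of all 14825 genes tested were. At an unadjusted p under 0.05 there were 40 of the 56, all below 0, that is with a lower log2 fold change of M2 against M0 in miR-210 KO, against 8.95% of all genes, 4.88% in that direction and 4.07% in the other. The median was -0.63 and 55 of 56 were below 0, against 0.00 and 49.7% above 0 for all genes. The DESeq2 Wald test called 14 of 62 genes with a count, also all below 0, against 0.258% of all 28668 such genes. Of the 62, 53 had an adjusted p and so could be called. With no filter on low counts edgeR called 35 (1.19% of all genes). It called 18 with library 2 of WT M0 left out (0.432%), 17 with library 2 of KO M0 left out (0.511%), and none with any of the other 10 left out.

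H1f5, H2ac6, H2bc13, H2bc15 and H3c1 had the lowest adjusted p in this test, 0.095 for each. For H1f5 the interaction was -1.09 ± 0.19 on the log2 scale (SE). Its counts in M2 were 392, 469 and 348 in WT and 351, 420 and 317 in miR-210 KO, so the genotypes overlapped in M2 and were apart in M0. For H2bc15 it was -0.96 ± 0.17, with 412, 486 and 341 counts in WT M2 and 349, 450 and 329 in KO M2. H3c15 and H2ac19 were at -0.04 ± 0.45 and -0.10 ± 0.53, with errors too wide to read a difference from.

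Genes of related function were compared with the family over the same fits. Of 40 DNA replication and S phase genes, such as the helicase subunits Mcm2 to Mcm7, 38 were above 0 in miR-210 KO against WT in M0, with a median of 0.33. None was called by edgeR, with 17 at an unadjusted p under 0.05, and 2 were called by DESeq2. Over all genes tested by edgeR, 50.1% were above 0 and 10.0% were at an unadjusted p under 0.05. DESeq2 called 0.800% of the 26255 genes with a count. Their part in the M0 difference of the histone genes was not tested. In M2 the median was 0.07, with none called by either tool and none at an unadjusted p under 0.05, against 10.7%.

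With IL-4, 6 of the 40 genes were called higher in WT and 2 lower, with a median of 0.08. Of all genes that could be called, 23.6% and 21.8% were. In miR-210 KO 3 were called higher and 14 lower, with a median of -0.27, against 18.5% and 18.1%. In the interaction of genotype and state 34 of the 40 were below 0, and none was called by edgeR (adjusted p from 0.38). At an unadjusted p under 0.05 there were 7, all below 0, against 8.95% of all genes. A difference between genotypes was thus not shown. Among the genes called higher in both genotypes were Dut, which clears dUTP, Rfc5, a clamp loader subunit, and Pcna, the replication clamp, at 2.94, 1.11 and 0.72 in WT and 2.48, 0.86 and 0.45 in miR-210 KO. Mcm2 and Mcm6 fell by 0.68 and 0.45 on the log2 scale in miR-210 KO (adjusted p = 0.00038 and 0.0023).

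Of 14 genes of histone mRNA transcription, processing and decay, 3 were called in WT with IL-4, all lower. These were Lsm10 (-0.53), a part of the U7 particle that cuts histone mRNA, Npat (-0.35), the activator of histone gene transcription, and Tut7 (-0.48), which adds uridines during decay. In miR-210 KO, Npat and Tut7 were called lower. Slbp, which binds the stem-loop, was not called in any comparison and averaged 41.5 CPM in WT M0, 50.3 in KO M0, 41.9 in WT M2 and 45.6 in KO M2. None of the 14 was called by edgeR or DESeq2 between genotypes, with 1 at an unadjusted p under 0.05 in M0 and none in M2. Of 10 histone chaperones, 2 were called lower in WT M2, Daxx and Ubn1, and Daxx also in miR-210 KO. None of the 10 was called between genotypes by either tool, with 2 at an unadjusted p under 0.05 in M0 and none in M2. Of all genes that could be called with IL-4, 21.8% were called lower in WT and 18.1% in miR-210 KO. In the interaction none of the 14 or the 10 was called, and none was at an unadjusted p under 0.05.

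Of 11 replication-independent histone genes, 10 were tested. In WT, H2ax, the H2A form of the DNA damage response, rose with IL-4 by 1.03, Cenpa, the centromeric H3, by 0.64, Macroh2a1 by 0.36 and H2az1 by 0.30, while H1f0 fell by 0.78 and H3f3b fell by 0.29 on the log2 scale. Their median was 0.24, below the 0.85 of the replication-dependent genes, a difference that was not tested. Between genotypes none was called by edgeR, with 1 at an unadjusted p under 0.05 in each state, and DESeq2 called 1 in M0 and none in M2.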

How the data were processed

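Per the labels and the study's methods, the authors trimmed reads with Trimmomatic 0.39, removed duplicate reads with Picard, aligned to GRCm39 with STAR 2.7.11 and counted by strand with featureCounts 2.0.3. They deposited raw counts per gene in 4 tables, 1 for each pair of groups, and a normalized signal, in which each library of a pair is divided by its size factor, which served here only as an alternative for summed levels. Removal of duplicates can lower counts of short, abundant genes. Columns were assigned by group name, and the library numbers 1 to 3 are not tied to samples.

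Symbols came from GENCODE vM39 (GRCm39), which matched 56323 of 56941 identifiers. Pairs of groups were tested on the deposited counts with edgeR 4.0.16 (quasi-likelihood test, TMM, filterByExpr, R 4.3.3), and the interaction on all 12 libraries, with Benjamini-Hochberg adjustment over all genes tested. A call needed an adjusted p below 0.05 and a change of over 1.2-fold. For M2 against M0 it also had to be a protein-coding gene averaging above 10 normalized counts, and the interaction had no fold limit. The SE is the log2 fold change divided by the square root of F. The code was tested on simulated counts. Named are genes called between genotypes or in the interaction, the 5 largest increases and decreases with IL-4 in each genotype, the 2 highest of each class per kb, and genes at or near 0. Outside this rule, chosen after their values were seen, are H2ac6, H2ac10, H2ac22, H2bc13, H2bc21, H2bc22, H3c1, H4c1, H4c2, H1f1 and H4c16. The members and lists were chosen with earlier results of these data known. Stem-loops and stretches were searched with Python 3.11.15 on the GENCODE transcript marked Ensembl canonical. Alternatives were the DESeq2 1.42.0 Wald test, other scalings and filters, another fold limit, all 12 libraries in 1 fit, a block by library number, and leaving out each library.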

Additional observations from a re-analysis of the deposited data

How the results depend on the processing

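The counts between genotypes given here include H4c17 and, where it passed, H4c18. The counts in the report leave both out, because the family was selected on their values. The number of genes past the call limits in miR-210 KO against WT in M0, 3, was 18 with the DESeq2 Wald test, 24 in a fit of all 12 libraries, 34 without a filter on low counts, 1 when a log2 fold change past 1 was required, and 1 to 25 with a library left out; the cause was not tested. In M2 the 5 calls became 3 in the fit of all 12 libraries, 2 with the limit of 1, and 3 to 5 with a library left out. With H4c17 and H4c18 left out, the M0 count was 2. It was then 0 with the limit of 1 and 0 to 24 with a library left out. The M2 count without them was 3. It was then 1 in the fit of all 12 libraries, 1 with the limit of 1, and 1 to 3 with a library left out. With the limit of 1, the 46 calls of M2 against M0 in WT became 23 and the 19 in miR-210 KO became 1, by construction. In miR-210 KO, 20 of 25 were higher in the fit of all 12 libraries, 17 of 21 without TMM scaling and 13 of 22 with library 2 of KO M0 left out, against 18 of 19. The interaction, with 0 calls, had 14 with DESeq2, 35 without a filter, and 0 to 18 with a library left out. The libraries share only a number, so a block by library number pairs nothing known; it gave 20 calls in M0 and within 1.5 times the main count elsewhere. Of the summed levels, the H2A log2 ratio of M2 against M0 in WT, 0.89, became 0.66 over genes with under 50% shared stretches; the other ratios moved by less than the spread. For the interaction, leaving out a library gave -0.39 to 0.17 for H2ac19 (main value -0.10) and -0.24 to 0.17 for H3c15 (-0.04). Low counts limit H3c15, H2ac19 and H2bc22.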
